A study of Polypedilum vanderplanki with 24 samples.

Results

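In Pv11 cells held for 48 h in trehalose (T48), 97 of 17782 genes were at least 2-fold higher in both cell lines without HSF1 than in either cell line with it. They were selected on those T48 values: for each gene, the lower of the 2 knockout levels plus 1 had to be at least 2 times the higher of the 2 HSF1 levels plus 1, on mean TPM (a transcript level scaled by gene length and by the total of the library). Their T48 difference is thus a description of the choice and no finding. All 97 were among the 8805 genes that reached 1 TPM in at least 1 group at T48, of which they are 1.10%. The reversed rule, for genes higher with HSF1, took 109 genes or 1.24%.

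Pv11 is a cultured cell line from the sleeping chironomid Polypedilum vanderplanki. Of 24 poly(A) RNA libraries, 3 came from each of 8 groups, made of 4 lines before trehalose (T0) and at T48. WT is the parental line. The knockout, Hsf1-/-, is 1 clone with an AcGFP1 and zeocin-resistance cassette, with a promoter of its own, placed in exon 1 of Hsf1 against its direction. The control cells (Hsf1-/-; HaloTag/BlaR) and the rescue cells (Hsf1-/-; Hsf1-HaloTag/BlaR) are each a clone made from that knockout, with HaloTag and blasticidin resistance, or with Hsf1-Flag, HaloTag and blasticidin resistance, inserted at g7775. The rescue cells therefore still carry the cassette in Hsf1, and HSF1 protein is already made in them at T0. Within each line the group is 1 clone or 1 parental culture, so effects of HSF1 and of the clone cannot be told apart in a single pair.

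HSF1, heat shock factor 1, is a transcription factor that in many animals forms trimers and binds heat shock elements (HSEs), arrays of GAA and TTC triplets in alternating orientation, best known upstream of chaperone genes. Pv11 cells can survive drying after incubation with concentrated trehalose, during which they make protective proteins such as the late embryogenesis abundant (LEA) proteins. HSF1 is known mainly as an activator, and genes whose RNA is lower in its presence are less familiar. Whether HSF1 itself lowers the RNA of the genes described here was not tested.

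The deposited values are means over the 3 libraries of a group, so no spread between libraries, no n and no test is given here, and a ratio near 2 may lie within library error. Bulk RNA also cannot tell fewer cells of a kind from less RNA per cell. As a check of the treatment, all 27 Lea genes were higher at T48 than at T0 in WT and in the rescue cells, as were 26 in the knockout and 24 in the control cells. Their median log2 change was 2.10, 2.61, 1.13 and 1.20 in these 4 lines. Hsf1 itself (g3611) was listed at no more than 0.307 TPM in any group, the rescue cells included, so its level checks no label. The median of all 8805 genes differed by 0.33 on the log2(TPM + 1) scale between control and rescue cells at T48, and by 0.01 after the groups were divided by median-of-ratios factors. Under that scaling 60 genes passed the rule, all of them among the 97, and the other 37 came under 2-fold. In all 97 both knockout levels still lay above both HSF1 levels, with a lowest ratio of 1.59. The rule and the narrow range of the factors fix that order in advance, so it is no check of the set.

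Heat shock elements predicted by the authors near the start sites are shown first, since they are the sequence feature that a direct target of HSF1 would carry. The authors searched 1000 bp straddling each start site for 5 HSF motifs, and all 9705 listed matches lie on the strand of the gene. Of the 97 genes, 20 had a match (20.6%, 95% Wilson interval 13.8 to 29.7), against 2520 of the 8805 genes (28.6%). The interval covers counting error only, and neighbouring members share windows. With matches within 200 bp of the start site alone, the shares were 7.22% and 12.5%. With only the 4 motifs that the methods name, they were 18.6% and 20.4%. At a match p-value of at most 1e-05 from FIMO, the search tool, they were 3.09% and 2.92%. In each of these 4 settings the 95% interval of the members covered the share of all 8805 genes. It was 3.54 to 14.2 within 200 bp, 12.1 to 27.4 with the 4 motifs and 1.06 to 8.7 at the stricter p-value. The 13-base matches below are the strongest among the members, with 1 match per gene or shared window. Each is read 5′ to 3′ on the strand of its gene, with the GAA and TTC triplets in capitals.
g3612: TTCtaGAAaaTTC
g2468: atctaGAAttTTC
g5365: tacgaGAAcaTTC
g13563 and g13564: TTCccGAAtattt
g13706: TTCcagagttTTC
g11934 and g11935: tacgcGAActTTC

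Only the first of these 6 holds 3 alternating triplets. A weaker match of g2468, which overlaps the one shown and scored 8.8, also holds 3, but the last 2 lie closer together than in g3612. Counted without regard to spacing, 2 of the 97 genes had a match with 3 triplets. The share of the 8805 genes with such a match is not given here. The match of g3612 scored 17.8, its midpoint lies 263 bp from the centre of the window, and 4 of the 5 motifs matched there. Its window is chr1:26747258-26748258 of assembly Pv_5.2, on the plus strand. g3612, which encodes a protein with a DUF1712 domain, starts 576 bp from the start of Hsf1, which runs the other way, and all 4 matches of g3612 overlap matches listed for Hsf1 itself on the other strand. Among the 8805 genes, 338 were matched by all 4 motifs that the methods name, and among the 97 genes 4 were. The element of g5365 has its midpoint 18 bp from the centre of its window, the nearest of those shown. g13563 and g13564 are neighbours whose windows overlap and hold the same match, and so do g11934 and g11935. A match is a similarity of letters, and binding at these sites was not tested.

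The 97 genes spanned a wide range of levels. Their mean over the 2 knockout lines at T48 ran from 1.45 to 1686 TPM with a median of 22.8, and 20 genes were at 100 TPM or more while 24 were below 10. The median level was 4.39 TPM in WT, 5.87 in the rescue cells, 23.4 in the knockout and 22.4 in the control cells at T48. At T0 the corresponding medians were 2.68, 4.15, 8.95 and 8.84 TPM. The T48 ratio had a median of 2.39, was 3 or more for 23 genes and 4 or more for 7.

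**Figure D1:**
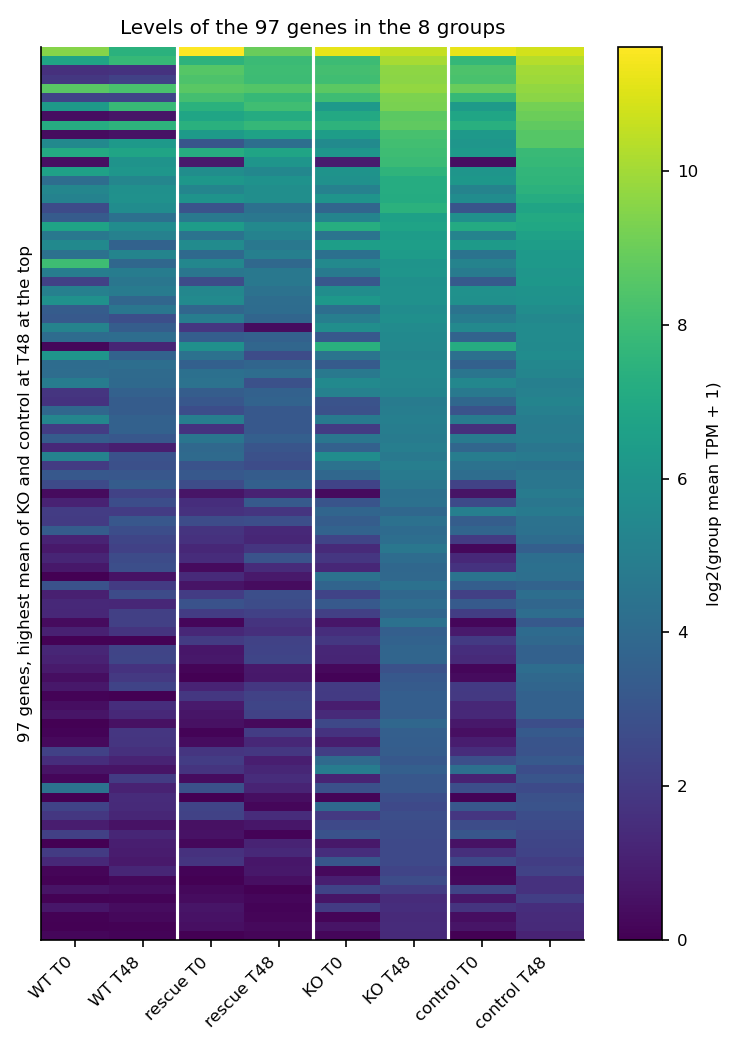
Heat map of the 97 genes (rows, ordered by the mean of knockout and control cells at T48) in the 8 groups (columns, 2 for each line), coloured by log2(group mean TPM + 1). KO is the knockout. The T48 columns of the knockout and control cells are brighter than those of WT and rescue by selection, while the T0 columns show no common order: some rows are dark in WT alone.

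Just inside the threshold, among genes of at least 10 TPM, stood g3537, g112 and g8607. g3537, annotated as a calcineurin-like phosphoesterase of the PGAP5/Cdc1/Ted1 family, was at 37.1 TPM in WT, 31.1 in rescue, 82.9 in knockout and 75.6 in control cells at T48, a ratio of 2.01. Just outside were g4663 with a ratio of 1.9996, the mitochondrial carrier g582 with 1.997 and the UDP-glycosyltransferase g10244 with 1.985. g10244 was at 31.5 TPM in WT, 23.6 in rescue, 63.4 in knockout and 65.7 in control cells. The border therefore runs through genes of like behaviour.

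At T0 the choice used no value. The levels are not independent of it, since each line is the same clone or culture at both times and a lasting difference between lines would appear at both. The same rule applied at T0 took 10 of the 97 genes (10.3%), against 63 of the 8805 (0.716%). Both knockout lines were on the higher side, knockout over WT and control over rescue, for 59 of the 97 (60.8%) and for 3898 of the 8805 (44.3%). The log2 ratio of the knockout mean over the HSF1 mean had a median of 0.60 in the 97 and 0.13 in the 8805. The 2 pairs contributed unequally. Knockout over WT reached 2-fold at T0 for 36 of the 97 (background 11.6%) and had a median of 0.64 on the log2 scale, and control over rescue for 18 (background 2.03%), where the median was 0.28. With scaled values 9 of the 97 passed at T0.

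**Figure D2:**
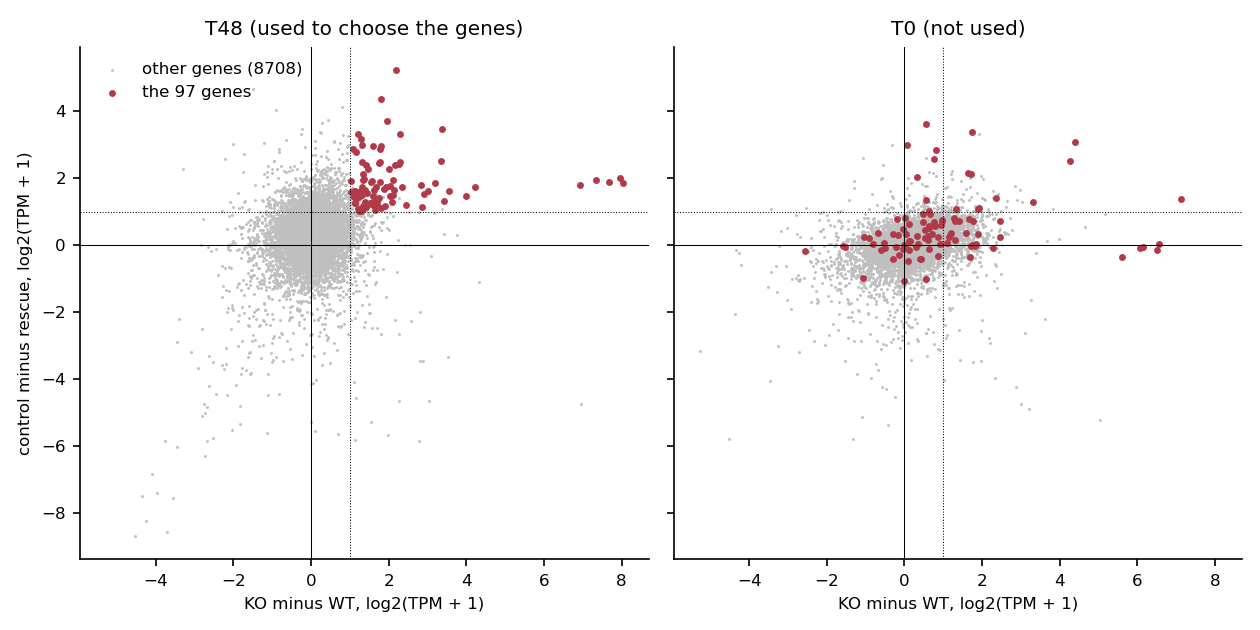
Difference of knockout (KO) minus WT (horizontal) against control minus rescue (vertical), both in log2(TPM + 1), for the 97 genes (red) and the other 8708 genes of at least 1 TPM (grey), at T48 and at T0. Dotted lines mark 2-fold. At T48 the red points fill the upper right corner by selection, and at T0, 10 of them pass the rule and a group at the right lies near 0 on the vertical axis.

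The 10 genes that passed at both times were g11868, g4816, g1892, g1049, g4430, g5879, g3418, g15028, g3575 and g113. g5879 (chromosome 2, 12570858-12571479, plus strand) had the largest T0 ratio of the members that reached 10 TPM, and also the largest T48 ratio of all 97. It carries an RNA recognition motif like that of RBM42, a domain that binds single-stranded RNA. Its level was listed at 0 in WT, and was 1.58 TPM in rescue, 20.1 in knockout and 20.6 in control cells at T0. In the same order it stood at 0.482, 0.718, 14.3 and 17.9 TPM at T48, a ratio of 8.93. The difference from the HSF1 lines was thus already present before trehalose.

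g4430 encodes a protein with receptor L, furin-like and fibronectin type III domains, the arrangement found in insulin receptor family proteins. It was at 3.16 TPM in WT, 2.15 in rescue, 13.0 in knockout and 31.4 in control cells at T0, and at 3.21, 2.51, 13.7 and 26.2 TPM at T48. Its 4 levels hardly moved with trehalose. The serpin g1892, of a family of protease inhibitors, stood at 3.05, 6.93, 19.9 and 20.0 TPM at T0 and at 6.19, 5.53, 30.7 and 19.2 TPM at T48. g4816, with no annotated domain, stood at 2.46, 9.70, 33.5 and 25.1 TPM at T0 and at 11.3, 11.4, 36.3 and 32.9 TPM at T48. For g4816 WT and rescue differed at T0 but not at T48, where they were nearly equal. The glutathione S-transferase g3418, of a family that conjugates glutathione to reactive compounds, was at 0.549, 2.34, 28.6 and 18.0 TPM at T0, and was lower at T48 in both knockout lines, at 10.3 and 5.65 TPM.

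Other genes had the opposite order at T0. In 18 of the 97, WT at T0 was above both knockout lines, a smaller share (18.6%) than among the 8805 genes (27.1%). g6611, a TGF-beta family ligand whose kind signals through paired receptor kinases, was at 259 TPM in WT at T0 against 40.3 in rescue, 43.4 in knockout and 35.7 in control cells. After trehalose it stood at 13.7 TPM in WT and 14.0 in rescue, and at 64.4 and 77.7 TPM in knockout and control. The WT level was thus the highest of the 4 before trehalose and the lowest after it. The leucine-rich repeat protein g4561 was at 137 and 151 TPM in WT and rescue and at 65.2 and 76.2 TPM in knockout and control at T0. By T48 these levels had changed places, at 111 and 110 TPM against 258 and 235 TPM. Knockout minus WT was -1.06 and control minus rescue -0.98 at T0, and 1.22 and 1.08 at T48, on the log2 scale.

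The change over trehalose was next compared within each line. This uses the T48 values of the selection, so a larger change in the knockout lines is in part built in. Members at least 2-fold higher at T48 than at T0 numbered 61 in the knockout (background 21.5%), 61 in the control cells (23.2%), 29 in WT (24.9%) and 16 in the rescue cells (10.7%). The median log2 change of the 97 was 1.34, 1.47, 0.20 and 0.14 in these 4 lines, against 0.31, 0.35, 0.52 and 0.10 over the 8805 genes. With scaled values the WT count of the 97 was 19 and not 29, and the WT median was -0.01.

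In 58 of the 97 the level was at least 2-fold higher at T48 in both knockout lines (background 17.3%), and in 28 of these 58 in neither WT nor rescue. Another 13 reached 2-fold in all 4 lines. In 8 members the level was at least 2-fold lower at T48 in both WT and rescue (background 2.73%), and none of these was among the 58. The remaining 31 did neither. The set therefore has no single course over trehalose. It includes genes that passed 2-fold in the knockout lines alone, genes that passed 2-fold in every line, and genes lower at T48 in both HSF1 lines. These 3 kinds do not cover all of the 97.

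**Figure D3:**
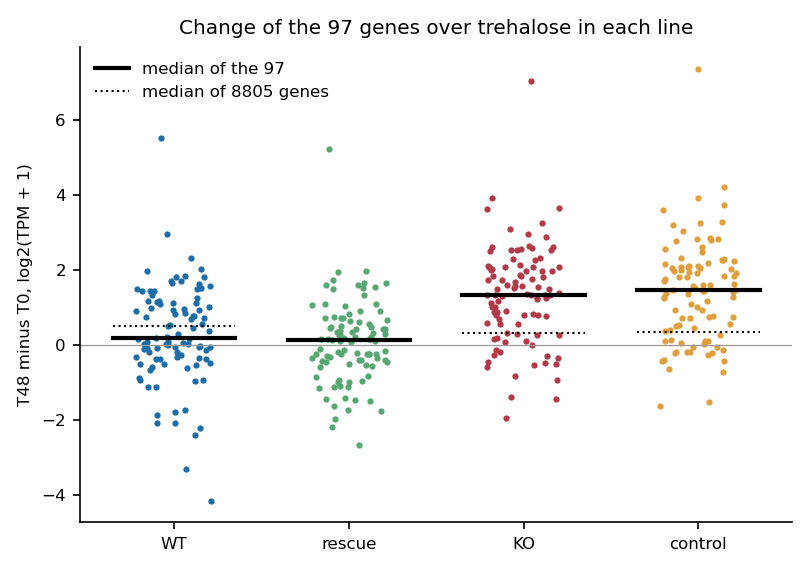
Change of each of the 97 genes from T0 to T48 in log2(TPM + 1), 1 point per gene, for each line (KO is the knockout). Solid bars are medians of the 97 (0.20 in WT, 0.14 in rescue, 1.34 in knockout, 1.47 in control) and dotted bars medians of 8805 genes. The T48 levels chose the genes.

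The tetraspanin g8185, a membrane protein with 4 transmembrane segments by family, shows the pattern of all lines. It was below 1 TPM in every line at T0, the highest being 0.829 TPM in the knockout, and at T48 it was at 62.0 TPM in WT, 66.4 in rescue, 240 in knockout and 222 in control cells. By contrast g14289, a beta-thymosin, of a family of small proteins that bind actin monomers, was high at both times. Its levels at T0 were 110 TPM in WT, 182 in rescue, 246 in knockout and 215 in control cells, and at T48 they were 222, 238, 1079 and 1289 TPM. At T48 the ratio was 4.52, the fourth largest of the 97, and WT and rescue lay near each other.

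The 8 genes lower after trehalose in both HSF1 lines were g11500, g6611, g13707, g5365, g13706, g11259, g8270 and g4877. g11500 (chromosome 3, 16650214-16651738, plus strand) is annotated as elongation factor EF1A, which brings aminoacyl-tRNA to the ribosome, and had the highest level of the 97. It was at 722 TPM in WT, 3137 in rescue, 2332 in knockout and 2431 in control cells at T0. The T48 levels were 170, 495, 1562 and 1810 TPM. Rescue was the highest line at T0, so the order of the lines at T48 was not that of T0. The ribosomal protein L27e g8270 was at 34.6, 15.0, 48.7 and 29.1 TPM at T0 and at 6.66, 6.38, 25.3 and 26.3 TPM at T48. It is the only ribosomal protein among the 97, and of 180 translation genes at 1 TPM or more 2 were members. g11259, glycogen synthase, which builds glycogen from UDP-glucose, was at 38.9 TPM in WT and 30.2 in rescue at T0 and at 11.1 and 8.19 TPM at T48, with 25.4 to 30.8 TPM in the knockout lines throughout.

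**Figure D4:**
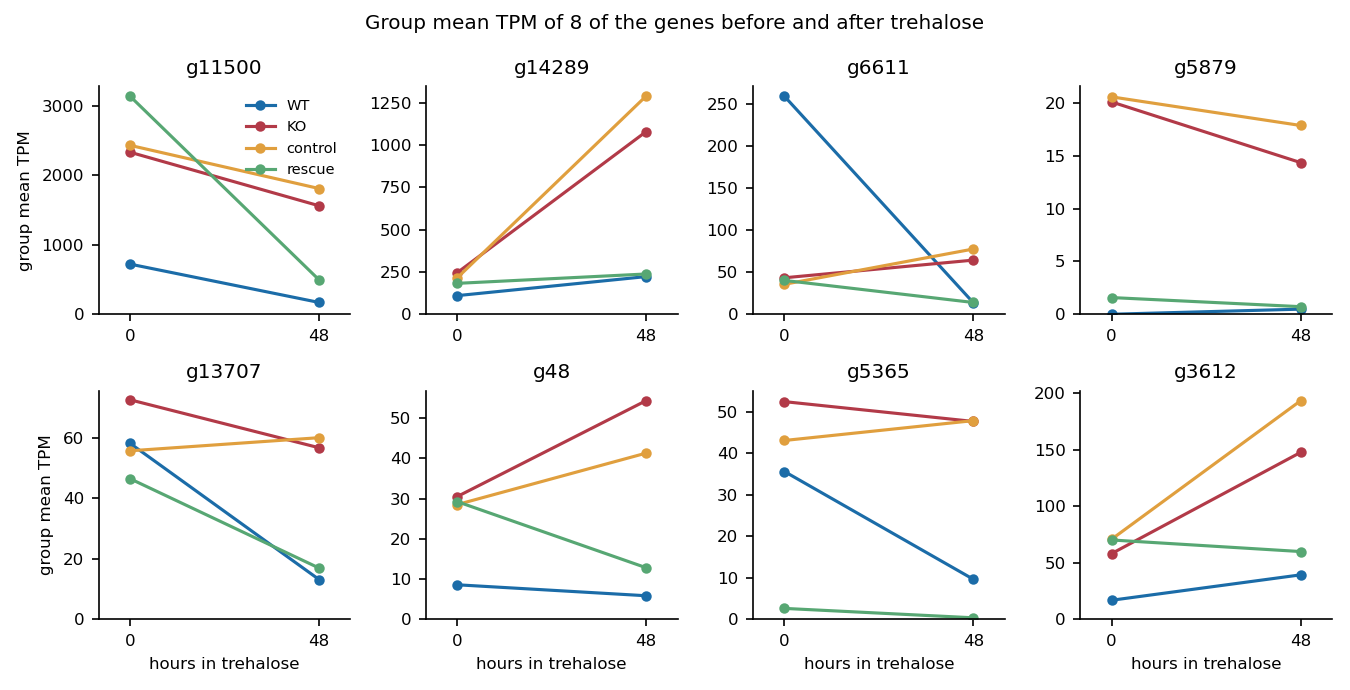
Group mean TPM of 8 members at 0 and 48 h in trehalose, 1 line per cell line (blue WT, green rescue, red knockout, orange control), each panel with its own axis from 0. g14289 and g3612 are higher at 48 h in the knockout lines, g11500, g13707 and g5365 lower in WT and rescue, and g6611 starts highest in WT.

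By annotated domain, 49 of the 97 matched 1 of 20 roles and 48 matched none, of which 19 had no InterPro domain at all among the members. No member was in the lists of Lea, thioredoxin, Pimt, Lil, heat shock protein and trehalose metabolism genes, 129 genes in all. No member fell among 333 C2H2 zinc finger proteins, 236 other DNA-binding factors, 90 chaperones or 304 genes of the ubiquitin system that reached 1 TPM. Members were 1.10% of all 8805 genes, so lists of these sizes would hold few or none at that share. These zeros are therefore no finding about the lists. The roles below are given by how many members they hold, beside how many genes of the role reached 1 TPM.

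Oxidoreductases held 8 members of 375, and all 8 were cytochrome P450s, heme enzymes that oxidise lipids, hormones and foreign compounds. Of the 158 P450 genes listed, 53 reached 1 TPM, and the 8 are 15.1% of those. They lie at 3 places. g43, g44, g46, g47 and g48 stand in a row of P450s between 405368 and 414671 on chromosome 1, g13706 and g13707 are neighbours on chromosome 3, and g2249 stands alone on chromosome 1. In the row, g44 spans 312 bp and g46 747 bp, and whether these models are separate genes was not tested.

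g13707 was the highest of the 8 at T48 in the knockout lines. It was at 58.3 TPM in WT, 46.5 in rescue, 72.7 in knockout and 55.8 in control cells at T0, so the lines began near each other. After trehalose it was at 13.1, 16.9, 56.8 and 60.2 TPM. Its neighbour g13706 started higher in WT than elsewhere, at 66.4 TPM against 19.0, 21.4 and 18.7 TPM, and reached 11.9, 5.51, 37.9 and 49.9 TPM at T48. The pair thus differ at T0. At T48 WT was below rescue for g13707 and above it for g13706. The order of HSF1 and knockout lines that they share there is that of the rule.

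In the row on chromosome 1, g48 was at 8.54 TPM in WT and at 29.2 in rescue, 30.5 in knockout and 28.5 in control cells at T0. At T48 it was at 5.81, 12.8, 54.4 and 41.3 TPM. Rescue matched the knockout lines before trehalose and stood between them and WT after it, and g43 and g44 had the same order. g47 was different. It was at 0.0249 TPM in WT, 0.429 in rescue, 4.64 in knockout and 0.689 in control cells at T0 and at 0.455, 0.212, 13.7 and 5.85 TPM at T48, with a ratio of 4.71. g45, between g44 and g46, is not a member and reached 5.75 TPM in the knockout and 2.17 in the control cells. Further along, g55 was at 50.3 TPM in rescue and 21.7 in knockout against 1.75 in WT and 1.02 in control cells at T48, so the P450s of this row did not share 1 order of the lines.

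Protein kinases held 7 members of 223. A protein kinase domain is annotated in 4, of which g4976 has a tyrosine kinase active site, and the other 3 (g5364, g5365 and g5366) are a tandem of DUF227 or CHK kinase-like proteins, 13.0% of the 23 such genes at 1 TPM or more. g2468, a Ser/Thr kinase with the second strongest HSE match shown above, was at 29.5 TPM in WT, 22.2 in rescue, 26.3 in knockout and 27.4 in control cells at T0. By T48 it was at 28.5, 24.2, 64.6 and 67.5 TPM. Its 4 levels were alike before trehalose, and only the knockout lines were more than 2-fold higher after it.

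g5950, annotated as a TGF-beta receptor Ser/Thr kinase, the receptor class through which ligands such as g6611 signal, was at 3.68, 5.46, 8.03 and 8.84 TPM in WT, rescue, knockout and control cells at T0. By T48 it had 22.6, 24.2, 55.8 and 69.7 TPM. Ligand and receptor of this family were thus both members, with different T0 patterns. The protein kinase g14087, with C2 and AGC-kinase domains, was below 1 TPM in all lines at T0 and at 3.96, 1.18, 18.4 and 27.3 TPM at T48. The tandem gene g5365 was at 35.6 TPM in WT, 52.4 in knockout and 43.1 in control cells at T0, but at 2.58 TPM in rescue. At T48 it was at 9.60 TPM in WT, 0.311 in rescue, 47.7 in knockout and 47.9 in control cells. All 3 tandem genes were lower in rescue than in WT at both times, and at T48 at least 2-fold.

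Of 408 membrane receptors at 1 TPM or more, 8 were members, though by domain some are not receptors: g11723 is arrestin-like, g6121 a syntaxin and g4785 a mastermind-like protein, which in Drosophila acts in Notch signalling inside the nucleus. Beside g4561 and g4430, the fibronectin type III protein g13334 was at 23.9, 20.6, 20.8 and 36.0 TPM in WT, rescue, knockout and control cells at T0 and at 33.4, 34.7, 84.2 and 99.3 TPM at T48. At T0 the control cells had the highest level, and at T48 both knockout lines did. Outside the fixed roles, g6465 and g6466 are neighbours that carry a Spaetzle domain, known in Drosophila as the ligand of the receptor Toll. They are 2 of 7 Spaetzle genes at 1 TPM or more. g6465 was at 44.8, 48.3, 89.0 and 80.6 TPM at T0 and at 11.6, 24.4, 89.0 and 86.6 TPM at T48, lower in WT and rescue and steady in the knockout lines. g6466 was below 2 TPM in all lines at T0 and at 4.28, 3.99, 12.8 and 11.2 TPM at T48.

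Transporters and channels held 5 members of 285, and 1 of 53 ABC transporters (g1965) was a member. g7267, the sigma subunit of an adaptor complex that sorts cargo into vesicles, was placed here by its annotation and was at 34.1, 61.8, 63.4 and 49.3 TPM in WT, rescue, knockout and control cells at T0 and at 57.8, 52.5, 139 and 145 TPM at T48. The amino acid transporter g7463 was at 107, 83.3, 149 and 135 TPM at T0 and at 49.0, 43.4, 106 and 119 TPM at T48, below its T0 level in every line. The others were the nicotinic acetylcholine receptor subunit g2533, the CRAL-TRIO protein g110 and g5878, a Piezo protein of the mechanosensitive cation channel family, which reached only 3.42 TPM. g5878 lies beside g5879. Vesicle traffic added g11870, a Sec1-like protein of the kind that in Drosophila acts in vesicle docking, with 33.3 to 39.0 TPM in all lines at T0 and 56.7, 52.0, 143 and 173 TPM at T48.

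Enzymes of carbohydrate and lipid metabolism held 4 members of 285. g13373, an acyl-CoA-binding protein, which carries activated fatty acids, was at 147, 164, 182 and 159 TPM in WT, rescue, knockout and control cells at T0 and at 179, 211, 435 and 442 TPM at T48. The alpha-D-phosphohexomutase g16921 was at 32.1, 40.5, 50.7 and 57.8 TPM at T0 and at 27.9, 20.0, 58.0 and 62.4 TPM at T48. The first passed 2-fold after trehalose in the knockout lines alone, and the second was lower at T48 than at T0 in rescue and WT. g15028, of the MBOAT acyltransferase family, was under 1 TPM in WT and rescue at both times and between 4.85 and 5.51 TPM in the knockout lines. The uroporphyrinogen decarboxylase g14174, an enzyme of heme synthesis outside these lists, was at 403, 401, 418 and 501 TPM at T0 and at 311, 365, 854 and 845 TPM at T48.

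RNA binding and processing held 4 members of 459. Beside g5879 these were the Piwi domain protein g12841 and the Pao retrotransposon proteins g11936 and g10533, placed there by their ribonuclease H-like domain. Piwi proteins bind small RNAs that silence transposons in animal germ cells. g12841 was at 3.68, 2.43, 3.27 and 1.77 TPM at T0 and at 2.07, 2.71, 9.77 and 6.92 TPM at T48. g5076, with a Maelstrom domain, which in Drosophila belongs to the same silencing pathway, was at 5.63 TPM in WT, 1.5 in rescue, 15.6 in knockout and 19.0 in control cells at T48. Chromatin held 4 members of 234, among them the RCC1-like g11059, at 9.41, 13.3, 17.1 and 20.3 TPM at T0 and at 22.6, 16.1, 49.7 and 51.2 TPM at T48. The histone H3 gene g11868 and the PHD-type zinc finger genes g11937 and g10534 were the other 3.

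These genes lead to a group that WT nearly lacked. g11935 (chromosome 3, 19425387-19425770, minus strand) was at 2.08 TPM in WT at T0, and at 371 in rescue, 279 in knockout and 335 in control cells. At T48 it was at 2.24, 255, 809 and 1031 TPM. All 3 lines that descend from the knockout clone were thus far above WT at both times, and the lines with HSF1 did not resemble each other. g11934, g11936 and g11937 lie on both sides of it, in a run that spans 7755 bp. These 3 and g10531, g10533 and g10534, some way off on the same chromosome, were also lowest in WT at both times. At T48 their level in rescue stood between WT and the knockout lines. g11936, the retrotransposon protein, was at 0.358 TPM in WT, 111 in rescue, 127 in knockout and 113 in control cells at T0 and at 0.571, 139, 410 and 507 TPM at T48. g11868 was at 0.185, 55.1, 165 and 145 TPM at T0 and at 1.31, 13.4, 41.9 and 46.4 TPM at T48. At T48 g11868 was higher in control than in rescue cells by 1.72, and in knockout than in WT by 4.22, on the log2 scale. The parts of HSF1 and of the clone in these differences were not tested.

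Rescue was at least 2-fold above WT at T0 for 21 of the 97 (background 5.63%), and in 20 of these 21 the knockout and control cells were too. In 12 the rescue level was at least 2-fold above WT at both times. The shares of the 8805 genes that match the counts of 20 and 12 are not given here. At T48, 13 members were at least 2-fold higher in rescue than in WT (background 4.42%) and 13 at least 2-fold lower (background 11.2%), with a median difference of 0.01 on the log2 scale. The lower ones included g5364, g5365, g5366, g110, g112 and g13562. Between knockout and control cells 5 of the 97 differed 2-fold (background 2.54%). The median absolute log2 difference was 0.23 between these and 0.40 between WT and rescue, against 0.19 and 0.45 over the 8805 genes. These T48 values were used by the rule. Without the 21 genes, the T0 median of the knockout over HSF1 ratio was 0.40.

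**Figure D5:**
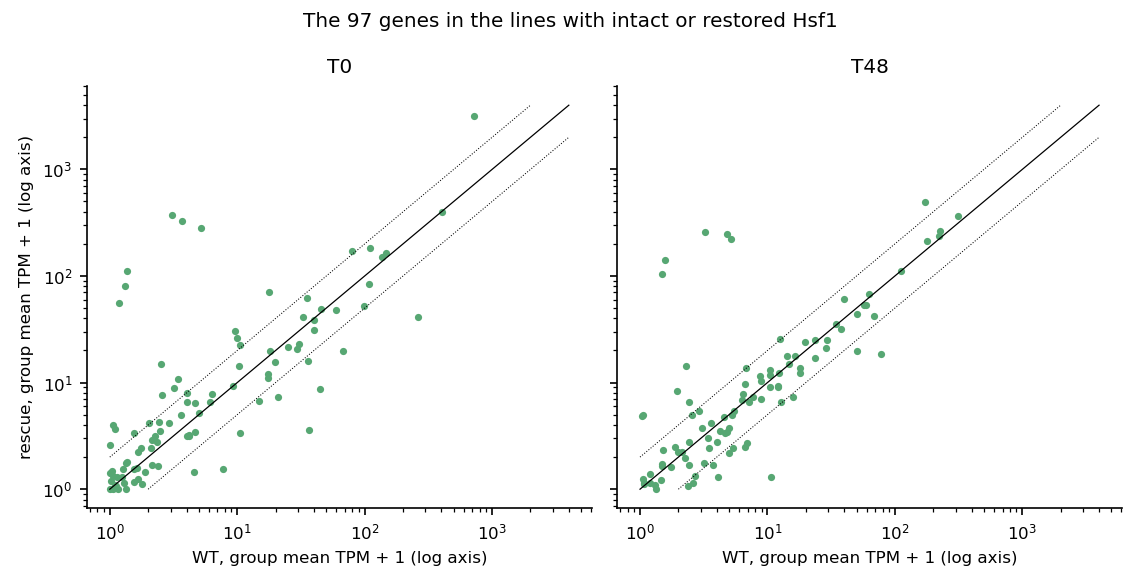
Level of each of the 97 genes in rescue (vertical) against WT (horizontal), as group mean TPM + 1 on log axes, at T0 and T48. The solid line marks equal levels and dotted lines 2-fold. The cluster far above the line at the left holds g11935, g11934, g10531, g11936 and g11937, which WT nearly lacked at both times, and at T0 also g11868.

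Members often lay next to each other. A neighbouring gene on either side, in coordinate order over all genes, was also a member for 35 of the 97 (36.1%), in 14 runs of 2 to 4 genes. Members are 1.10% of the genes at 1 TPM or more. That is a share of genes and not of genes beside a member, so it is not the matching background, which is not given here. Both runs of 4 have been counted above in part: g110 to g113 on chromosome 1 between 980859 and 988500, and g11934 to g11937 on chromosome 3 between 19424629 and 19432383. In the first, g112 was at 28.2, 19.7, 44.6 and 41.1 TPM in WT, rescue, knockout and control cells at T0 and at 14.8, 6.33, 39.5 and 31.0 TPM at T48, and the other 3 genes had lower levels in the same order of HSF1 and knockout lines. Reads that fit more than 1 gene were not counted, so levels of neighbours of 1 family, such as the ankyrin repeat genes g8655 and g8656, are uncertain. Those stood at 17.1 and 16.9 TPM in WT, 12.7 and 11.2 in rescue, 41.5 and 45.2 in knockout and 40.5 and 47.5 in control cells at T48.

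The run g13562 to g13564 on chromosome 3 carries several of the HSE matches. g13562, an ankyrin repeat protein, was at 44.0 TPM in WT, 7.67 in rescue, 46.4 in knockout and 67.2 in control cells at T0 and at 76.7, 17.6, 271 and 378 TPM at T48. g13563 was below 1 TPM in all lines at T0 and at 2.20, 0.758, 6.45 and 16.7 TPM at T48. g13564 was also below 1 TPM at T0 and at 2.77, 0.671, 8.22 and 14.1 TPM at T48. Near them, the carboxylesterase g13566 was at 67.4, 40.8, 188 and 200 TPM at T48. For these 4 genes rescue was below WT at T48.

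One run adjoins the edited gene itself. g3612 lies at 26747758-26749285 and g3613 at 26749293-26749686 on chromosome 1, next to Hsf1, and the cassette in exon 1 of Hsf1 is present in the knockout, control and rescue lines but not in WT. g3612 was at 16.7 TPM in WT, 70.0 in rescue, 57.9 in knockout and 70.7 in control cells at T0. At T48 it was at 39.1, 59.7, 147 and 193 TPM. At T0 all 3 lines with the cassette were thus above WT and alike, and at T48 the rescue stood apart from the other 2. g3613, annotated as LAMTOR4, a subunit of the Ragulator complex at the lysosome, was at 2.20, 7.89, 6.83 and 13.6 TPM at T0 and at 9.38, 12.1, 27.4 and 37.3 TPM at T48. The part of the cassette in these levels was not tested. The PDZ domain gene g3617, also a member, lies further on the same side and reached 4.94 TPM in the knockout and 4.34 in the control cells at T48, with 0.984 in WT and 1.23 in rescue.

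By chromosome the members were 23, 36, 33 and 5 on chromosomes 1 to 4 (23.7, 37.1, 34.0 and 5.15%), against 24.6, 29.5, 32.8 and 12.6% of the 8805 genes. Their span had a median of 1429 bp, against 1555 bp. Only 1 member, g3575, overlapped another gene. The authors' clusters of 4, formed from genes in their own test of control against rescue cells, hold 73 of the 97 in cluster 3, 21 in cluster 2 and leave 3 in none. Of the 8805 genes, 2283 are in cluster 3, 1107 in cluster 2 and 3102 in none. Since those clusters were made from the same libraries, this is no separate evidence of the pattern.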

How the data were processed

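Poly(A) RNA was sequenced as paired-end reads. The authors aligned the reads with Hisat2 to assembly Pv_5.2, sorted them with SAMtools 1.9, counted them per gene with HTSeq 0.6.0 leaving out reads of more than 1 place, and converted counts to TPM. The deposited expression signal is the mean TPM of the 3 libraries of a group. The strand setting of the counting is not given in the sources used here. FIMO, run by the authors, gave the match score and p-value listed for every predicted HSE, and positions are counted from the left end of the window.

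The table repeats genes over 25248 lines, and each gene was taken once. Levels were compared as log2(TPM + 1), which understates changes of low genes. A gene counts as past 2-fold when this differs by at least 1, and the rule makes every member reach 1 TPM in both knockout lines at T48. The design had allowed for library values, but the deposited file holds group means, and values of single libraries from other sources were not used, so nothing was tested. TPM keeps no depth, and library depths were not used here. Shares carry 95% Wilson intervals (statsmodels 0.14.6). Scaling used median-of-ratios factors (0.778 to 1.23) over 8873 genes above 0 in all groups. The selection and scaling code was tested on simulated data. Start positions in the table count from 0 and were raised by 1, which matches RefSeq loci for 8123 genes, 41 of them members. Roles came from patterns in the InterPro terms, whose broad domains place some genes wrongly.

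The members and the lists were chosen with earlier results of these data known. Named genes were the top 2 of each role with at least 3 members, the 5 highest, the 5 with the largest T48 ratio, the 3 nearest each side of the threshold, the 5 largest and 3 smallest T0 ratios, the 5 strongest HSEs, the longest runs, Hsf1 and g7775. Other genes were named after their values were seen. Alternatives changed the pseudocount, fold, scaling, abundant genes, minimum level, pairs of lines and HSE settings.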

Additional observations from a re-analysis of the deposited data

How the results depend on the processing

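No paired analysis was possible because the deposited file holds 1 mean per group. Values of single libraries were not used here, so no library was left out in turn. The size of the gene set depends on its definition. With a pseudocount of 0.1 it held 216 genes, 28 of them past the rule at T0, and 137, 144, 68 and 44 at least 2-fold higher at T48 in knockout, control, WT and rescue. With a pseudocount of 5 it held 48, all among the 97, with 5 at T0, a T0 median of 0.43 and 30, 30, 6 and 3 over trehalose in the same order. At 1.5-fold it held 398, with 41, 0.18 and 259, 247, 120 and 75 past 1.5-fold, and at 3-fold 23, with 3 and 0.77. Median-of-ratios scaling gave 60 genes and 30, 29, 10 and 5 over trehalose. WT against knockout alone took 371 genes (111 at T0), and rescue against control alone 1201 (93 at T0, T0 median 0.17). Leaving out the 10 most abundant genes (100 genes, 94 of them shared) or requiring 5 TPM in both knockout lines (84 genes) kept every count within 1.5 times. Among alternatives chosen after seeing the data, the 97 genes with scaled values had a T0 median of 0.49 and 19 past 2-fold in WT, and without the 21 genes 2-fold higher in rescue than in WT at T0 the median was 0.40. The T0 median was above 0 in every setting, and lowest with rescue against control alone (0.17) and at 1.5-fold (0.18). Over all 8805 genes the knockout over HSF1 ratio at T0 had a median of 0.13 in the main setting. The HSE share was 3.09% at a FIMO p of at most 1e-05 (2.92% of all 8805 genes) and 7.22% within 200 bp of the start, and with the 4 motifs of the methods it was 18.6% against 20.4%. Of the 60 genes left after scaling, 31 had a role, and 36.7% a neighbouring member. Causes of these changes were not tested. A median was taken as moved past 0.1. Low genes are least certain, since 24 of the 97 averaged below 10 TPM in the knockout lines and library depth was not used here.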

Other observations

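Genes near the 2 edited loci that are not members were listed as follows. On the far side of Hsf1, the actinin-type actin-binding gene g3610 was at 6.16 TPM in WT, 13.5 in rescue, 23.2 in knockout and 20.2 in control cells at T48, and at 5.52, 8.02, 8.99 and 7.53 TPM at T0. Beyond g3613, the WD40 repeat gene g3614 was at 11.1 TPM in WT and at 25.9, 26.4 and 27.7 TPM in rescue, knockout and control cells at T48. The Hsp90 gene g3606, 5 genes from Hsf1, was at 1024 TPM in rescue at T0 against 399 in WT. At the other locus, g7775 was at 102838 TPM in WT, 36840 in rescue, 48156 in knockout and 48410 in control cells at T0, and at 53957, 12040, 42716 and 37726 TPM at T48. No gene within 5 places of g7775 was a member.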
